A study of Mus musculus with 30 samples.

Results

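*Hmox1*, *Nqo1*, *Gclm*, *Gclc*, *Txnrd1*, *Srxn1*, *Gsr*, *Prdx1*, *Fth1* and *Ftl1* are genes of antioxidant defence and of heme and iron handling that the transcription factor NRF2 is known to activate. They were taken by symbol, 10 of the 56941 genes in the count tables, and were followed over dose and time in mHypoA-2/12 cells exposed to cannabidiol (CBD). Gene expression was profiled by 3′ mRNA-Seq, which counts reads near the 3′ end of polyadenylated transcripts, in 30 libraries that form 10 groups of 3. Cells received vehicle or CBD at 0.325, 0.75, 1.5 or 3 µM and were harvested after 6 or 24 h. All groups, vehicle included, contained 0.1% DMSO in DMEM with GlutaMAX. mHypoA-2/12 is an immortalized clonal line from adult mouse hypothalamic neurons, so each value describes 1 cell line. The study's methods set the replication at the CBD treatment without saying whether replicates came from separate passages. The edgeR p-values thus measure the spread between libraries within groups of 3, pooled over all groups of a fit.

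NRF2, encoded by *Nfe2l2*, is held in the cytoplasm and sent for degradation by KEAP1. When cysteines of KEAP1 are modified by electrophiles or oxidants, NRF2 escapes, pairs with a small MAF protein and binds antioxidant response elements (AREs) near its target genes. BACH1 binds the same elements as a repressor and is released from DNA by heme. *Hmox1*, which encodes heme oxygenase 1, the inducible enzyme that breaks heme down to biliverdin, carbon monoxide and iron, is the target on which BACH1 repression is known to be strongest. The ferritin chains encoded by *Fth1* and *Ftl1* store the iron that is set free.

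To show the kind of element through which these genes are grouped, the ARE core TGACNNNGC was looked for on both strands of RefSeq promoter windows (GRCm38.p6, an older assembly than the one the counts were made on) of 300 bases, 250 before and 50 after a transcription start. The tables held 10 windows for 7 of the 10 genes, *Hmox1*, *Gclc* and *Gsr* being the others, and 4 of the 10 windows, each of a different gene, held a core, as did 12.4% of all 32851 windows. The runs below carry the core in capitals and are read on the strand opposite to the gene.
Srxn1: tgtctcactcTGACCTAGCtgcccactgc
Gclm: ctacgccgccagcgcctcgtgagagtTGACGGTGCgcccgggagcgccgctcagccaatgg
Prdx1: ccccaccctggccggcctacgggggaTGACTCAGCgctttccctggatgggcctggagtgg
Txnrd1: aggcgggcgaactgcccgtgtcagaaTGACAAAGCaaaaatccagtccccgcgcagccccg

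Counted with the start as base 0 and negative numbers upstream, the *Srxn1* core (run at chr2:152105542-152105570) lay at 28 to 36, in a non-coding part of an exon. The *Gclm* core (run at chr3:122245397-122245457) lay at -134 to -126 and the *Prdx1* core (run at chr4:116685440-116685500) at -133 to -125, both upstream of the annotated gene. The *Txnrd1* core (run at chr10:82859088-82859148) lay at -92 to -84 from an internal start, in an intron of a longer transcript. The *Prdx1* core also contains TGACTCA, the letters of an AP-1 site. These matches describe letters in a window and not binding.

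Per library, 1839621 to 4420675 reads fell on genes. Values below are CPM, that is, reads scaled to a fixed library total, after TMM scaling, and are compared between libraries within a gene. The marker values in this paragraph are the exception and carry no TMM scaling. Neuronal markers were partly present: *Tubb3* reached 48.9 CPM and *Map2* 23.8 CPM over all libraries together, while *Snap25* stood at 0.0475 CPM, and the mesenchymal transcript *Col1a1* reached 2036 CPM. Of 5 listed markers of macrophages, a cell type rich in heme oxygenase 1, *Adgre1* and *C1qa* had 0 reads in every library. The others had reads, with *Csf1r* at 11.2 CPM, *Cd68* at 4.41 CPM and *Ptprc* at 0.688 CPM. The 5 macrophage markers summed to 11.75 to 28.81 CPM in the vehicle libraries and 8.447 to 29.7 CPM in the CBD libraries at 6 h. The vehicle libraries at 6 h differed in the share of reads that fell outside genes, 21.4%, 20.8% and 17.9%, and the last of them is named where a result turns on it. At 24 h the share split the groups, from 20.9% to 22.2% in the vehicle and 20.8% to 21.7% at 3 µM against 18.7% to 20.4% at the 3 lower doses. An edgeR fit with this share as a covariate is given where it moves a result. At 24 h share and dose group ran together, so that fit cannot tell them apart. All comparisons at one time point share their 3 vehicle libraries. In bulk RNA, less transcript per cell and fewer expressing cells cannot be told apart.

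*Hmox1* (chr8:75093621-75100589 on GRCm38, plus strand, ENSMUSG00000005413) was lower in the CBD groups at 6 h. The vehicle libraries stood at 87.9, 99.8 and 81.6 CPM, a mean of 89.8 ± 9.22 (SD, n = 3). With 0.325 µM CBD the libraries stood at 23.9, 36.3 and 39.3 CPM, with 1.5 µM at 27.6, 40.2 and 39.7 CPM, and with 3 µM at 39.8, 22.3 and 30.1 CPM. All 9 of these libraries lay below every vehicle library. The 0.75 µM group was split, with 2 libraries at 78.6 and 82.5 CPM near the vehicle and 1 at 34.7 CPM near the other doses. Over the 4 doses, 11 of 12 CBD libraries lay below all vehicle libraries and 1 lay within their range.

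The fitted changes of *Hmox1* on the log2 scale were -1.44 ± 0.26 (SE) at 0.325 µM (edgeR quasi-likelihood test, Benjamini-Hochberg FDR over all genes = 0.0333), -1.32 ± 0.26 at 1.5 µM (FDR = 0.0565) and -1.53 ± 0.26 at 3 µM (FDR = 0.0300). At 0.75 µM the change was -0.46 ± 0.25 (FDR = 0.699). *Hmox1* was the 1 gene of the 10 past FDR 0.1 at 0.325, 1.5 and 3 µM, where 0.108%, 0.0416% and 0.0416% of all genes tested passed as lower. At 0.75 µM none of the 10 passed by edgeR or by DESeq2, and 0.0749% of all genes passed in edgeR. There *Gclm*, and not *Hmox1*, was the 1 of the 10 with an unadjusted edgeR p under 0.05, which 7.79% of all genes had. With the 4 doses together, *Hmox1* stood at 0.439 of the vehicle level, a log2 change of -1.19 ± 0.19 (FDR = 0.00367, rank 5 of 12012 genes by p), again the 1 of 10 past the threshold, against 0.508% of all genes that passed as lower.

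The call for the 4 doses together did not turn on 1 library: leaving out each of the 15 libraries in turn gave log2 changes between -1.25 and -1.11 and FDRs between 0.00111 and 0.0430. The single-dose calls did. Without the vehicle library at 99.8 CPM the FDR rose to 0.104, 0.164 and 0.110 at 0.325, 1.5 and 3 µM. At 0.325 µM it rose to 0.103 without the library at 36.3 CPM. At 1.5 µM it rose to 0.399, 0.125 and 0.133 without the libraries at 27.6, 40.2 and 39.7 CPM, and at 3 µM to 0.298 and 0.268 without those at 22.3 and 30.1 CPM. In every one of these fits the log2 change stayed between -1.51 and -1.16. With only the 2 groups in the fit, the calls at 0.325 and 1.5 µM were lost too (edgeR FDR = 0.163 and 0.112). In DESeq2 the *Hmox1* calls at 0.325, 1.5 and 3 µM passed (FDR = 0.000809, 0.00282 and 0.000215). They also passed without the vehicle library at 81.6 CPM (edgeR FDR = 0.00833, 0.0132 and 0.00351).

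**Figure D1:**
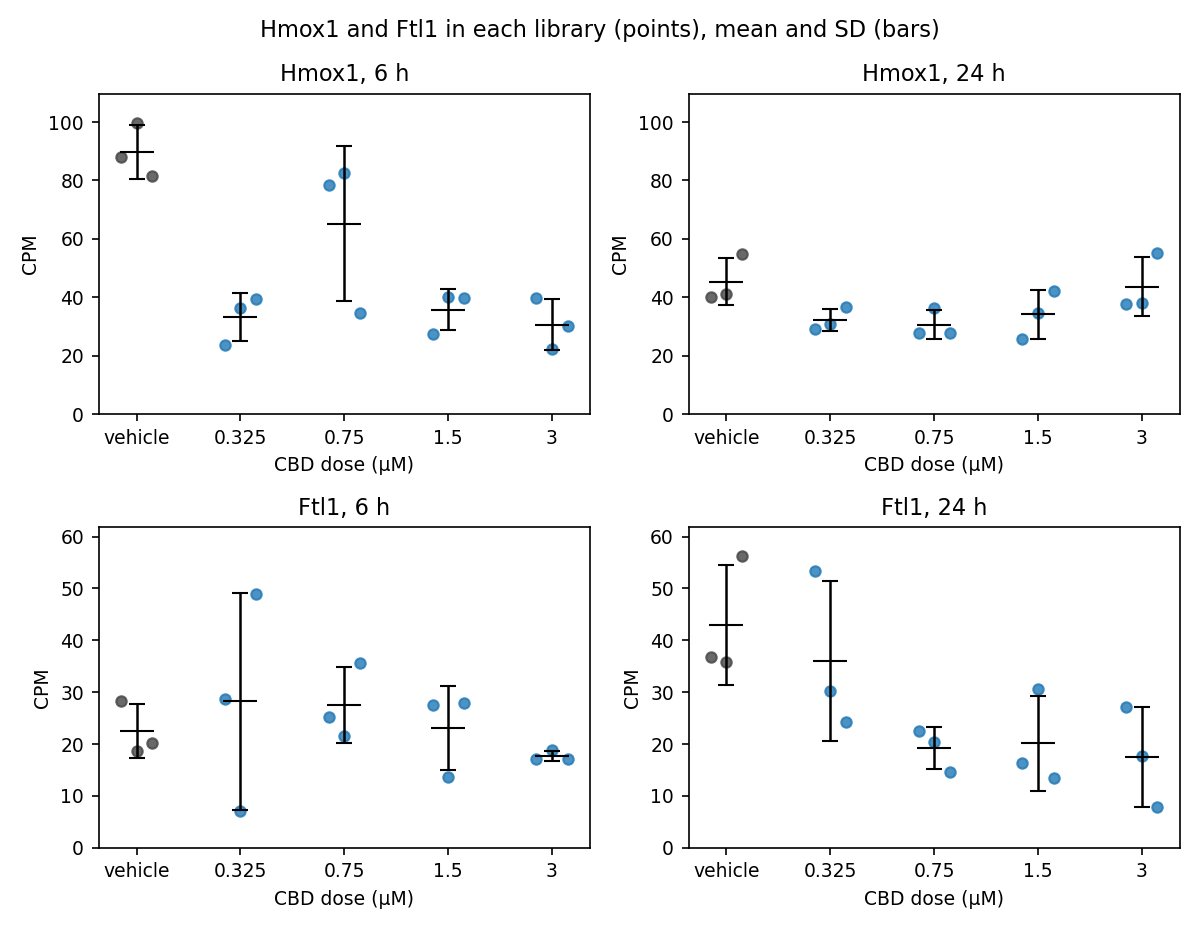
Levels of *Hmox1* (top) and *Ftl1* (bottom) in CPM at 6 h (left) and 24 h (right), by CBD dose in µM. Points are single libraries and the bars give the mean ± SD of 3 libraries. At 6 h the *Hmox1* libraries at 0.325, 1.5 and 3 µM sit between 22.3 and 40.2 CPM, all below the vehicle libraries at 81.6 to 99.8 CPM, and at 24 h the *Ftl1* libraries at 0.75, 1.5 and 3 µM sit below all vehicle libraries.

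Ordered by mean level at 6 h, the *Hmox1* groups were vehicle at 89.8 CPM, 0.75 µM at 65.3 ± 26.5 CPM, 1.5 µM at 35.8 ± 7.13 CPM, 0.325 µM at 33.2 ± 8.20 CPM and 3 µM at 30.7 ± 8.79 CPM. The libraries of each pair of neighbours in this order overlapped. The order did not follow the dose. In an edgeR test of any difference among the 4 doses *Hmox1* had FDR = 0.9998, and 0% of the 12012 genes passed. It was the 1 gene of the 10 with an unadjusted p under 0.05 in this test, against 3.76% of all genes, and DESeq2 called none of the 10. Without a filter on low counts it passed (edgeR FDR = 0.000907), with 0.0594% of all genes.

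At 24 h the *Hmox1* vehicle level was itself lower, at 40.3, 41.1 and 54.9 CPM (45.4 ± 8.19). The libraries stood at 29.3, 31.1 and 36.7 CPM with 0.325 µM, at 27.7, 36.3 and 27.8 CPM with 0.75 µM and at 25.6, 34.8 and 42.1 CPM with 1.5 µM. With 3 µM they stood at 37.6, 38.2 and 55.2 CPM, a mean of 43.7 ± 10.02. Of the 12 CBD libraries, 10 lay below all vehicle libraries, 1 within their range and 1 above. Groups next to each other in the order of means, vehicle, 3, 1.5, 0.325 and 0.75 µM, overlapped in their libraries.

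None of the *Hmox1* changes at 24 h passed the test. They were -0.50 ± 0.20 at 0.325 µM (edgeR FDR = 0.4998), -0.58 ± 0.20 at 0.75 µM (FDR = 0.416), -0.39 ± 0.20 at 1.5 µM (FDR = 0.690) and -0.05 ± 0.20 at 3 µM (FDR = 0.958). For the 4 doses together the change was -0.38 ± 0.15 (FDR = 0.667). The groups with the higher *Hmox1* means, vehicle and 3 µM, were those with the higher share of reads outside genes. With that share as a covariate the changes by rising dose were -0.19, -0.28, -0.13 and -0.04, and -0.16 for the doses together (edgeR FDR = 0.9998). Because the share also split the doses at 24 h, this fit cannot tell share and dose apart.

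The difference between the *Hmox1* changes at the 2 times was 0.81 ± 0.27 (edgeR FDR = 0.371). With each library's share outside genes in the model it was 1.05 and passed (edgeR FDR = 0.0865), so the call depends on that term. In the reported edgeR fit, which is without it, and in DESeq2, none of the 10 genes passed this test. Of all genes, 0.235% did in that edgeR fit. At an unadjusted p under 0.05 edgeR found 3 of the 10, against 6.52% of all genes. Taken dose by dose, a comparison chosen after the values were seen, the widest gap was at 3 µM, 1.47 ± 0.35 (FDR = 0.113), where 0.109% of all genes passed.

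No gene of the 10 passed at 24 h in the reported edgeR fit or in DESeq2, at any dose or for the 4 doses together. The counts at an unadjusted p under 0.05 in edgeR were 3, 3, 1 and 1 by rising dose and 2, both lower, for the doses together. Of all genes, 8.33%, 7.63%, 7.34% and 9.16% had such a p by rising dose, and 3.70% had one and were lower for the doses together. Of all genes tested, 0.0660%, 0.0825%, 0.0413% and 0.00825% passed by rising dose and 0.107% for the doses together.

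The ferritin genes share a translational control site, the iron-responsive element, a hairpin in the 5′ UTR that iron regulatory proteins bind when iron is scarce. It was read from the annotated transcripts (GENCODE vM21, GRCm38) by the loop letters CAGTGN, with A, C or T last and a C that 5 bases separate from the loop on its 5′ side, within the first 250 bases, which 7.16% of 58797 protein-coding transcripts hold. The loop CAGTGN is in capitals.
Fth1: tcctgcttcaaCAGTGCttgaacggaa
Ftl1: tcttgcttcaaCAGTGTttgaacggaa

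The *Fth1* run (chr19:9982733-9982759, plus strand) and the *Ftl1* run (chr7:45459780-45459806, minus strand) both lie in exon 1. They differ by the substitutions C3T and C17T, with the *Fth1* base first and positions counted from 1 at the 5′ end of the run. Control through this site acts on translation, which 3′ mRNA-Seq does not measure.

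*Ftl1*, the ferritin light chain, did not pass the test at either time, and its libraries spread widely. At 6 h the vehicle libraries stood at 28.4, 18.7 and 20.3 CPM (22.4 ± 5.19), and the 12 CBD libraries ran from 7.1 to 49.0 with a median of 23.4 CPM. At 24 h the vehicle stood at 36.8, 35.8 and 56.2 CPM, a mean of 42.9 ± 11.5. The 0.325 µM libraries overlapped it, at 53.4, 30.3 and 24.2 CPM. Those at 0.75 µM (22.6, 20.5 and 14.7 CPM), 1.5 µM (16.3, 30.6 and 13.5 CPM) and 3 µM (27.1, 17.6 and 7.89 CPM) all lay below the vehicle.

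The *Ftl1* changes at 24 h were -0.25 at 0.325 µM (edgeR FDR = 0.873), -1.17 ± 0.33 at 0.75 µM (FDR = 0.311), -1.12 ± 0.32 at 1.5 µM (FDR = 0.461) and -1.27 ± 0.33 at 3 µM (FDR = 0.345). With the 4 doses together the change was -0.95 ± 0.24 (FDR = 0.185). The difference from the change at 6 h, 0.09 ± 0.32, was -1.04 ± 0.44 (FDR = 0.677). The *Ftl1* call hinged on single libraries: it passed without the 3 µM library at 27.1 CPM (FDR = 0.0174), the 0.325 µM library at 53.4 CPM (FDR = 0.0528) or the 1.5 µM library at 30.6 CPM (FDR = 0.0875), where 47, 16 and 13 genes passed in all, against 13 with every library. It also passed in the edgeR fit without a filter on low counts (FDR = 1.99e-05) but not in DESeq2. With only the 2 groups in the fit, *Ftl1* passed at 0.75 and 1.5 µM at 24 h, where 0.903% and 0.14% of all genes did. In the shared fit it passed at 0.75 µM without the 3 µM library at 27.1 CPM, with 52 genes in all. Without the 3 µM library at 17.6 CPM it passed at 3 µM, with 288 genes in all. The counts behind *Ftl1* were 18 to 242 reads per library. Reads that map equally well to a near-identical copy are not counted, and the annotated copy *Ftl1-ps1* held 184 reads over all libraries, so the level of *Ftl1* itself is uncertain.

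*Fth1*, the ferritin heavy chain with the ferroxidase activity, showed neither the dip of *Hmox1* at 6 h nor the low *Ftl1* values at 24 h. Its vehicle libraries stood at 3072, 3423 and 4492 CPM at 6 h, and the CBD libraries ran from 3050.0 to 4307 CPM. Vehicle libraries at 24 h stood at 4677, 3721 and 3592 CPM, against 3413 to 4944 CPM with CBD. The changes for the 4 doses together were 0.05 ± 0.11 (edgeR FDR = 0.926) at 6 h and 0.07 ± 0.08 (FDR = 0.941) at 24 h.

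Among the glutathione genes, *Gclc* and *Gclm* encode the catalytic and the modifier subunit of glutamate-cysteine ligase, which makes the first step of glutathione synthesis, and *Gsr* encodes the reductase that returns oxidized glutathione to its reduced form. *Gclm* at 6 h stood at 122, 112 and 70.8 CPM in the vehicle libraries and at 55.6 to 96.3 CPM (median 75.6) with CBD. Only 4 of the 12 CBD libraries lay below all vehicle libraries, since the last vehicle library was low. The change for the 4 doses together was -0.41 ± 0.15 (edgeR FDR = 0.299). Without that library, the one with 17.9% of reads outside genes, the change was -0.62 and passed (FDR = 0.0284), in a fit that called 304 genes in all, against 51 to 120 without any other single library. At 24 h the *Gclm* change was 0.02, with the vehicle at 52.2, 60.7 and 63.3 CPM and CBD libraries at 48.5 to 78.0 CPM.

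*Gclc* and *Gsr* gave no call. The *Gclc* vehicle libraries stood close together at 6 h, at 48.9, 50.7 and 52.8 CPM, and the CBD libraries lay on both sides of them, from 34.4 to 74.3 CPM, a change of -0.09 ± 0.17 (edgeR FDR = 0.921). By 24 h the *Gclc* vehicle stood at 33.5, 21.9 and 18.2 CPM and the CBD libraries at 13.5 to 35.5 CPM. *Gsr* stood at 15.01, 19.7 and 22.2 CPM in the vehicle and 13.4 to 36.8 CPM with CBD at 6 h, a change of 0.09 ± 0.24 (FDR = 0.945). Its vehicle at 24 h stood at 14.9, 15.6 and 13.1 CPM against 7.94 to 15.5 CPM with CBD, a change of -0.27 ± 0.20 (FDR = 0.887).

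In the thioredoxin system, *Txnrd1* encodes the cytosolic thioredoxin reductase, *Prdx1* a peroxiredoxin that reduces peroxides, and *Srxn1* the sulfiredoxin that repairs overoxidized peroxiredoxins. *Srxn1* at 6 h stood at 125, 121 and 138 CPM in the vehicle and at 78.8 to 122 CPM with CBD, 10 of the 12 libraries lying below all vehicle libraries. Its change of -0.34 ± 0.13 did not pass (edgeR FDR = 0.292). *Txnrd1* stood at 150.1, 164 and 151 CPM in the vehicle and at 114 to 162 CPM with CBD, with 9 of 12 libraries below and a change of -0.21 ± 0.12 (FDR = 0.575). Both thus lay low in most CBD libraries at 6 h, by far less than *Hmox1*. At 24 h the *Srxn1* change was -0.12 (FDR = 0.928), and the *Txnrd1* vehicle stood at 81.3, 105 and 84.2 CPM against 77.9 to 97.0 CPM with CBD.

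*Prdx1* did not lie low with CBD. Its vehicle libraries at 6 h stood at 699, 781 and 969 CPM and the CBD libraries at 695 to 1099 CPM, a change of 0.14 ± 0.12 (edgeR FDR = 0.767). In the vehicle at 24 h it stood at 1066, 790.0 and 649 CPM and in the CBD libraries at 636 to 1099 CPM. Among the 4 doses at 24 h, none of the 10 genes passed in the reported edgeR fit, where 1.93% of all genes passed. In that fit 3 had an unadjusted p under 0.05 (14.5% of all genes did), namely *Prdx1* (FDR = 0.170), *Ftl1* (FDR = 0.174) and *Fth1* (FDR = 0.187). *Prdx1* and *Fth1* were lowest at 3 µM, with means of 736 and 3622 CPM against 912 to 1023 and 4083 to 4691 CPM at the lower doses, and 3 µM was also the dose with the highest share of reads outside genes. With that share, which cannot be told apart from dose at 24 h, as a covariate, none of the 10 passed and 0.00825% of all genes did. DESeq2, without it, called *Prdx1* and *Fth1*, and 6.29% of all genes.

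*Nqo1*, the quinone reductase that is often read as a marker of NRF2 activity, had few reads in these cells, 19 to 92 per library. At 6 h it stood at 10.6, 17.1 and 24.4 CPM in the vehicle and at 14.5 to 30.9 CPM with CBD, a change of 0.10 ± 0.23 (edgeR FDR = 0.932). By 24 h the vehicle stood at 21.4, 12.6 and 13.8 CPM and the CBD libraries at 9.64 to 19.3 CPM, a change of -0.17 ± 0.21 (FDR = 0.943). The spread between vehicle libraries was as wide as any gap to the CBD groups.

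Across the 10 genes, the median log2 change for the 4 doses together was -0.02 at 6 h, with all genes tested also at -0.02, and -0.06 at 24 h, with all genes at -0.01. Apart from *Hmox1*, the genes had a median of 0.05 at 6 h. At an unadjusted p under 0.05, 3 of the 10 were found at 6 h, *Hmox1*, *Srxn1* and *Gclm*, all lower, where 5.39% of all genes had such a p and were lower. The 2 at 24 h were *Hmox1* and *Ftl1*.

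**Figure D2:**
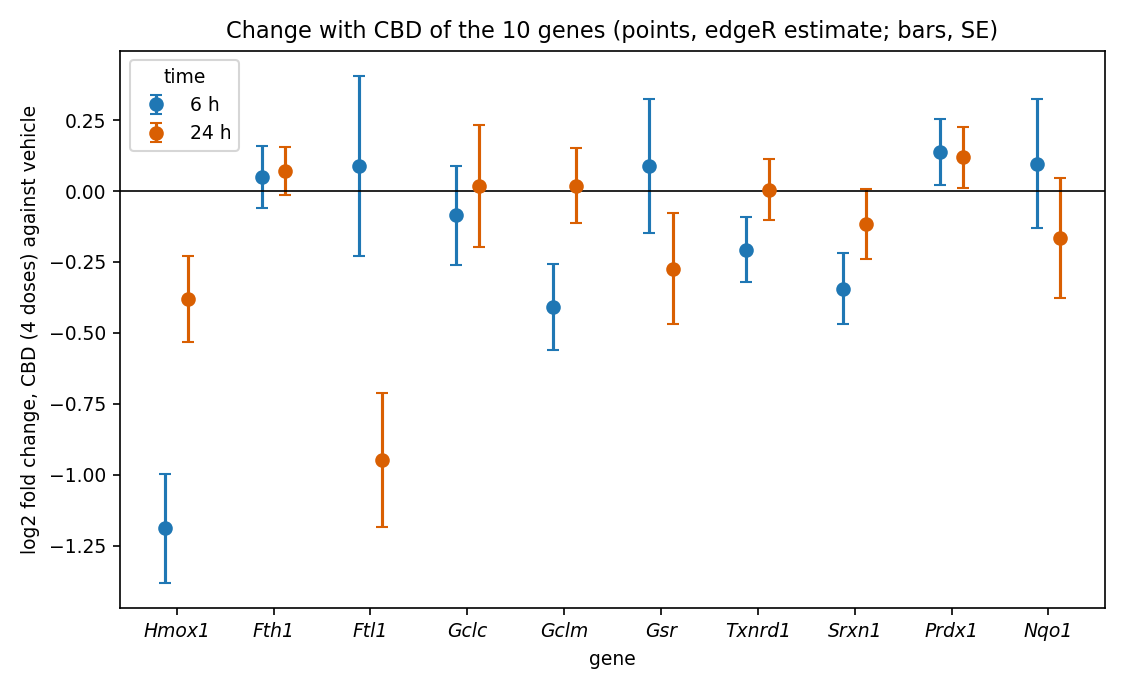
Log2 fold change of each of the 10 genes for the 4 CBD doses together against vehicle, at 6 h (blue) and 24 h (orange), with the SE as bars. *Hmox1* at 6 h (-1.19) stands apart from the other genes at that time, and *Ftl1* is the lowest at 24 h (-0.95).

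**Figure D3:**
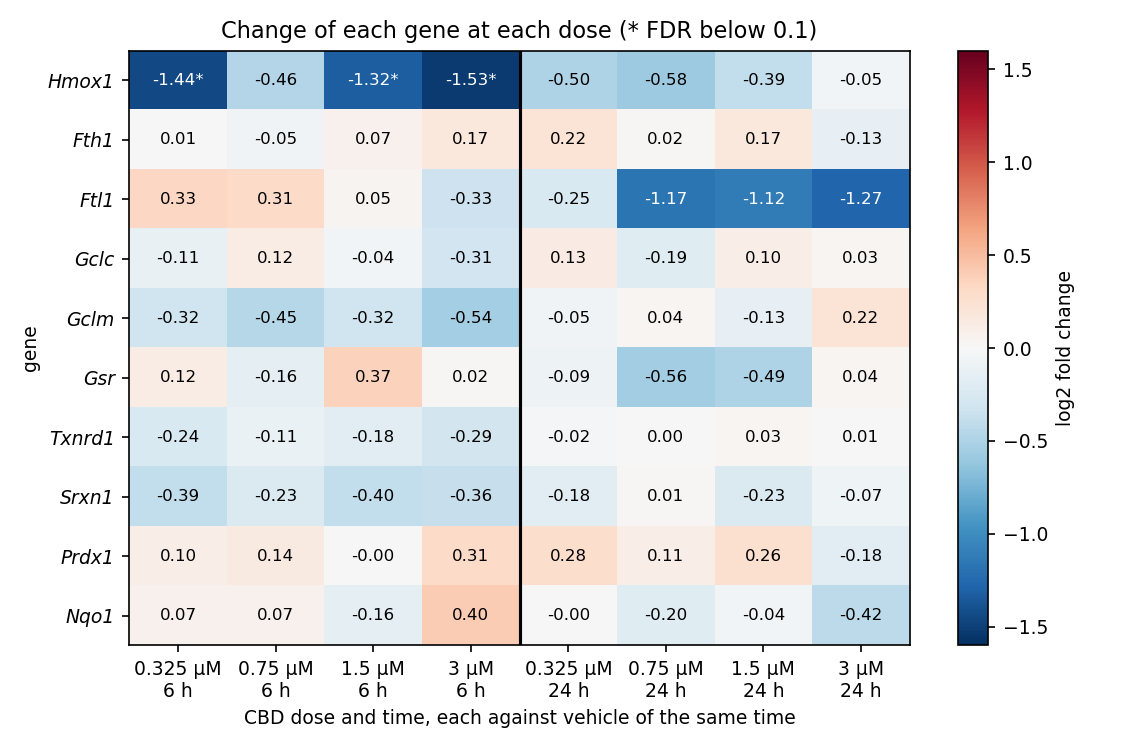
Log2 fold change of the 10 genes (rows) at each CBD dose against vehicle, for 6 h and 24 h (columns), as colour and printed value. Asterisks mark FDR under 0.1 (edgeR), which *Hmox1* alone carries, at 0.325, 1.5 and 3 µM at 6 h.

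To compare *Hmox1* with the other targets directly, the log2 ratio of *Hmox1* to each of the 9 other genes was taken within every library, which removes the depth of the library. At 6 h all 9 ratios were lower with CBD, by 0.83 to 1.42 on the log2 scale. Against *Gclc* and *Txnrd1* the ratios fell by 1.12 and 1.01, and all 12 CBD libraries lay below all vehicle libraries (two-sided exact permutation over 455 splits, p = 0.0022 for each, the smallest this design allows). Against *Gsr* (-1.30) and *Prdx1* (-1.37) the exact permutation p was 0.00659, and against *Nqo1* (-1.42) and *Fth1* (-1.29) it was 0.011. The differences were -0.87 against *Srxn1* (exact permutation p = 0.0154), -0.83 against *Gclm* (p = 0.0264) and -1.20 against *Ftl1* (p = 0.044). These p-values are not adjusted, because the genes were chosen with results known, and the 9 ratios share their numerator. Without the vehicle library at 99.8 CPM, 4 of the 9 ratios had p under 0.05.

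At 24 h none of the 9 ratios had an exact permutation p under 0.05. Against 8 genes the ratio was lower with CBD, by 0.12 to 0.53 on the log2 scale, with exact permutation p-values from 0.0505 (*Txnrd1*) to 0.646 (*Gsr*). Against *Ftl1* it was higher, by 0.60 (exact permutation p = 0.268).

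**Figure D4:**
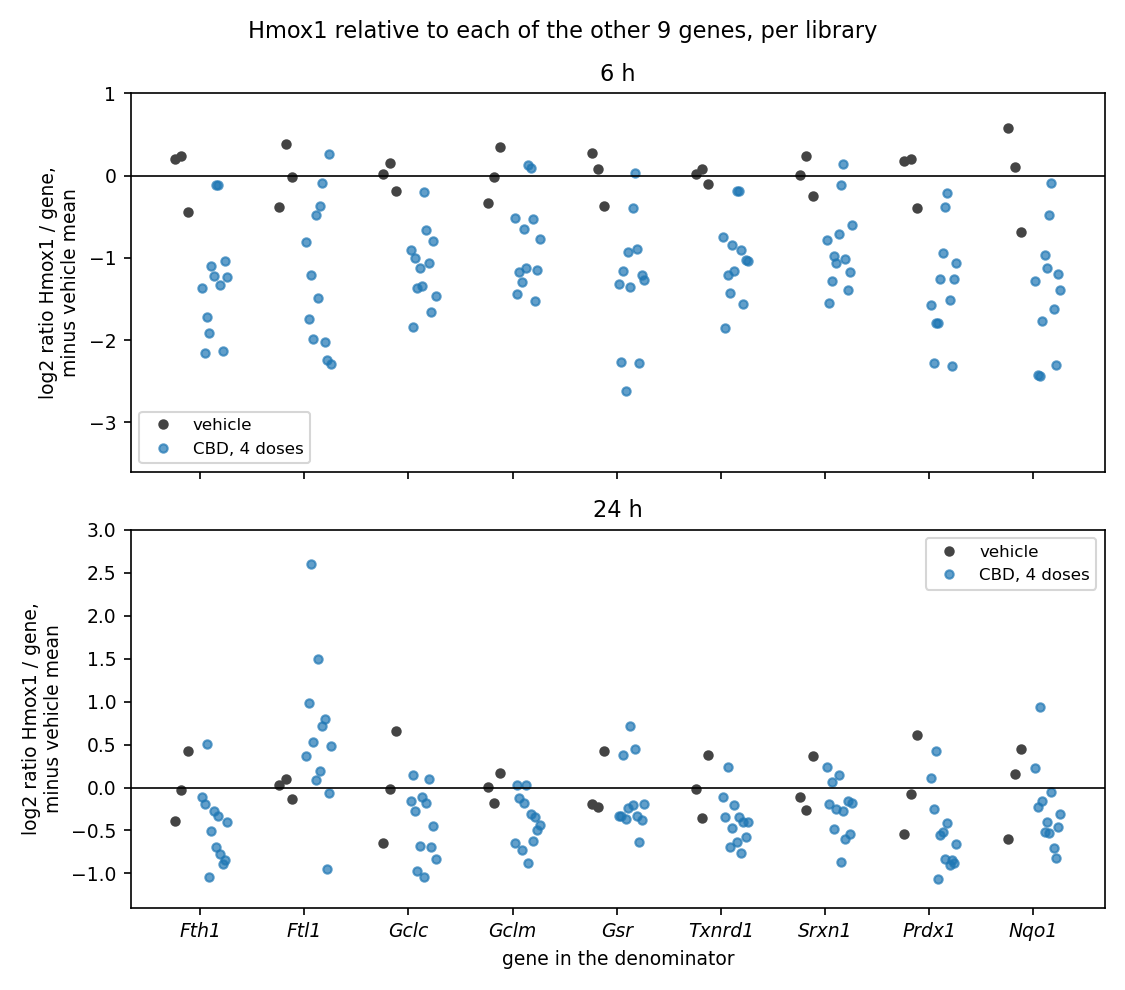
Log2 ratio of *Hmox1* to each of the 9 other genes in every library, minus the mean of the vehicle libraries, at 6 h and 24 h. Points are libraries, 3 with vehicle and 12 with CBD for each gene and time. At 6 h most CBD libraries lie below the vehicle libraries for every gene (9 to 12 of 12), and at 24 h the groups overlap.

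The regulators were next read from a list of 64 further genes of the pathway. *Nfe2l2* stood at 135 to 189 CPM in the vehicle and 136 to 206 CPM with CBD at 6 h, a change of 0.13 (edgeR FDR = 0.785). *Keap1* stood at 78.3 to 87.5 and 68.7 to 95.4 CPM, a change of -0.04 (FDR = 0.941). *Bach1*, the repressor, stood at 13.9 to 25.1 and 9.18 to 22.4 CPM, a change of -0.52 ± 0.22 (FDR = 0.377). None of the 3 passed, and their changes at 24 h were -0.16, 0.01 and -0.35 (FDR = 0.873, 0.997 and 0.774). These are transcript levels and do not measure the amount or place of the proteins.

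Of the 60 listed genes tested at 6 h, 2 passed for the 4 doses together, where 0.749% of all genes did, and 16 had an unadjusted p under 0.05, 6 of them lower, where 10.3% of all genes had such a p. *Sqstm1*, which encodes p62, a selective autophagy receptor that binds KEAP1, fell from 597 ± 97.4 CPM (507 to 701) in the vehicle to a median of 381 CPM (311 to 462) with CBD, a log2 change of -0.66 ± 0.11 (edgeR FDR = 0.00476). *Gstm1*, a glutathione S-transferase that conjugates electrophiles, rose from 79.0 ± 4.66 CPM (74.1 to 83.4) to a median of 114 CPM (87.6 to 141), a change of 0.55 ± 0.13 (FDR = 0.0608). For both genes the vehicle and CBD libraries did not overlap, as for 0.733% of all genes lower and 0.716% higher. The 2 genes thus moved in opposite directions, and the median change of the list was -0.04.

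By role, 1 of 9 regulators (*Sqstm1*) and 1 of 10 glutathione genes (*Gstm1*) passed at 6 h, and none of 10 thioredoxin, 6 NADPH supply, 9 detoxification, 13 heme and iron and 3 superoxide genes did. The number of listed genes past the threshold was between 1 and 6 when single libraries were left out. At 24 h none of 61 passed by the reported edgeR fit or DESeq2 for the doses together and 4 had an unadjusted p under 0.05. Among the doses at 24 h, *Txnip*, the inhibitor of thioredoxin (edgeR FDR = 0.0595), and *Idh1*, the cytosolic NADP-dependent isocitrate dehydrogenase (FDR = 0.0729), differed. Both were lowest at 3 µM, by 0.93 and 0.75 on the log2 scale below the vehicle, neither of which passed alone (FDR = 0.352 and 0.345). In the test among the doses, 1.93% of all genes passed. Once the edgeR model allowed for how many reads fell outside genes, 1 of 12118 genes passed that test. The *Txnip* and *Idh1* calls thus cannot both hold in that fit, which cannot tell share and dose apart.

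The vehicle groups themselves differed between 24 h and 6 h, so each change with CBD is measured from a reference that moves. Of the 10 genes, 6 passed in this comparison, where 26.7% of all genes did. The libraries of the 2 times did not overlap for 5 that were lower and 1 that was higher at 24 h, against 15.9% and 15.8% of all genes. Lower at 24 h were *Hmox1* by a log2 change of -0.98 ± 0.24 (edgeR FDR = 0.00306), *Gclc* by -1.03 ± 0.26 (FDR = 0.00428), *Txnrd1* by -0.78 ± 0.14 (FDR = 0.000148), *Gclm* by -0.77 ± 0.19 (FDR = 0.00285) and *Srxn1* by -0.60 ± 0.16 (FDR = 0.00738). *Ftl1* was higher by 0.94 ± 0.39 (FDR = 0.0814). The genes that passed include both subunits of glutamate-cysteine ligase, while *Nqo1* (-0.15), *Gsr* (-0.40), *Prdx1* (0.03) and *Fth1* (0.13) did not pass. The *Ftl1* call was lost without the vehicle library at 18.7 CPM or that at 20.3 CPM at 6 h, or without that at 56.2 CPM at 24 h. Without the second of these *Fth1* passed in its place. With every library in, DESeq2 called 5 of the 10 genes and not *Ftl1*. When the edgeR model took account of how many reads fell outside genes, 7 of the 10 passed, with *Fth1* added.

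The 24 h *Hmox1* vehicle level of 45.4 CPM thus lay below all vehicle libraries at 6 h. It lay within the range of the 12 CBD libraries at 6 h, 22.3 to 82.5 CPM with a mean of 41.2 ± 19.4 CPM. Of those 12, only the 0.75 µM libraries at 78.6 and 82.5 CPM lay above that level, and the median was 37.8 CPM. Time in culture and time of vehicle exposure cannot be told apart here, since there was no untreated group.

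Of the 61 further pathway genes tested between the vehicle groups, 30 passed, 14 higher and 16 lower at 24 h, where 26.7% of all genes passed. Lower were *Slc7a11*, the cystine transporter that feeds glutathione synthesis (-2.15, edgeR FDR = 0.00193; 13.9 to 28.8 CPM at 6 h and 2.69 to 6.30 CPM at 24 h), *Tfrc*, the transferrin receptor for iron uptake (-0.90, FDR = 0.000307; 71.5 to 99.1 and 36.5 to 51.9 CPM), and *Maff*, a small MAF partner (-0.85, FDR = 0.000819). Higher were *Gpx4*, which reduces lipid peroxides (1.92, FDR = 0.00042; 5.55 to 8.90 and 17.2 to 31.6 CPM), *Cbr1*, a carbonyl reductase (1.30, FDR = 0.00417), and *Gstm1* (0.96, FDR = 6.79e-06). The other genes that passed higher were *Prdx2*, *Prdx4*, *Prdx5*, *Sod1*, *Fech*, *Me1*, *Idh1*, *Steap3*, *Akr1a1*, *Ephx1* and *Mgst1*, by 0.30 to 1.22. Those that passed lower were *Abcc4*, *Abcc1*, *Pcbp1*, *Taldo1*, *Tkt*, *Txn2*, *Prdx6*, *Ugdh*, *Cul3*, *Sod2*, *Sqstm1*, *Slc48a1* and *Sesn2*, by -0.96 to -0.32. Listed genes thus passed in both directions.

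**Figure D5:**
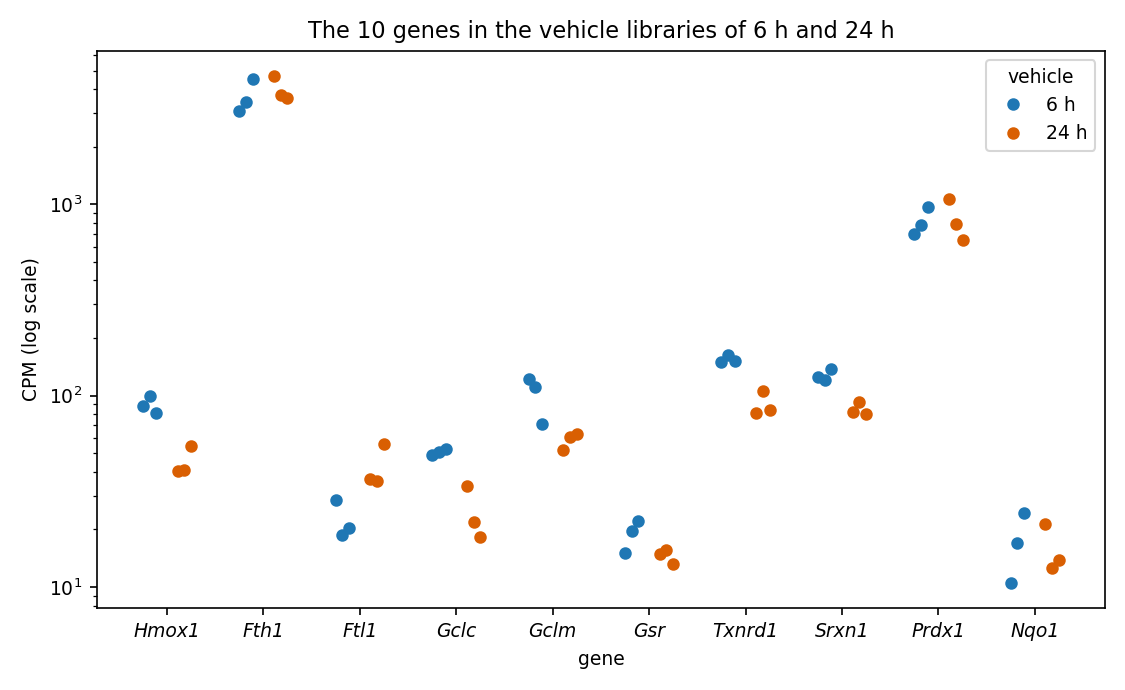
Levels of the 10 genes in the 3 vehicle libraries at 6 h and the 3 at 24 h, in CPM on a log axis, each point a library. *Hmox1*, *Gclm*, *Gclc*, *Txnrd1* and *Srxn1* lie lower at 24 h without overlap, and *Ftl1* lies higher.

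Genes whose levels followed *Hmox1* closely over the 30 libraries, each time point centred on its own mean, were *Plin2*, a lipid droplet protein (Pearson r = 0.81), *Gm43581* (0.74), *Isg15*, an interferon-induced ubiquitin-like protein (0.73), and *Slc39a6*, a zinc transporter (0.72). Of these, *Plin2* (-0.72, edgeR FDR = 0.0140) and *Isg15* (-1.43, FDR = 0.0161) passed for the 4 doses together at 6 h. In the same order of 12790 genes, *Txnrd1* ranked 92 (r = 0.57), *Srxn1* 98 (0.56) and *Gclm* 306 (0.49). *Gclc* ranked 1317 (0.33), *Ftl1* 6426 (0.00) and *Gsr* 8653 (-0.12). *Nqo1* (-0.28), *Prdx1* (-0.39) and *Fth1* (-0.46) went the other way and stood near the end of the order. The libraries share the vehicle groups and their depth, so these coefficients are descriptions.

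With each group centred on its own mean, which leaves only the spread between libraries of a group, *Hmox1* still went with *Txnrd1* (r = 0.45), *Gclm* (0.42), *Srxn1* (0.36) and *Gclc* (0.32) over the 30 libraries. Not all pairs among these went together, as *Gclm* with *Srxn1* (0.08) shows. Other positive pairs were *Prdx1* with *Fth1* (0.68), *Nqo1* with *Fth1* (0.61), *Nqo1* with *Prdx1* (0.51) and *Gsr* with *Fth1* (0.49). Negative pairs reached the same size, with *Srxn1* and *Ftl1* at -0.67, *Gclm* and *Fth1* at -0.60, and *Gclm* with *Nqo1* and with *Prdx1* at -0.54 each. The 0.75 µM library at 6 h that was low in *Hmox1* (34.7 CPM) was also the lowest of its 3 in *Gclm* (55.6 CPM), *Txnrd1* (114 CPM) and *Gclc* (41.6 CPM). The same held for *Srxn1* (101 CPM) and *Gsr* (13.4 CPM), while its *Ftl1* was the highest (35.6 CPM). Its share of reads outside genes was 19.2%, against 20.4% and 21.1% in its group. The coefficients are correlations between libraries of unknown independence and carry no test.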

How the data were processed

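The submitters prepared 3′ mRNA-Seq libraries (QuantSeq FWD) and sequenced single reads. According to the study's methods and the submitters' processing notes, reads were trimmed with Flexbar, aligned to GRCm39 with STAR 2.7.5c and counted per Ensembl gene with HTSeq 1.99.2, and the study tested with DESeq2 at FDR 0.1. The deposited values are raw read counts per gene, 1 table per library, made by the authors. Rows that name no gene were kept out of library sizes. The share of reads outside genes is the reads that overlapped no gene, among those on genes, on no gene or ambiguous between genes. Whether counting used strand is not given in the sources used here, and reads that map to several places are not counted by this tool.

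Groups came from the labels. Counts were tested with edgeR 4.0.16 (R 4.3.3; filterByExpr, TMM, quasi-likelihood F-test), with the 15 libraries of a time point in 1 fit, which gave 12012 genes at 6 h and 12118 at 24 h, and with all 30 libraries for comparisons between times (12790 genes). The Benjamini-Hochberg adjustment covered every gene in a fit, with a threshold of 0.1. Log ratios used a prior count of 2 and an exact two-sided permutation test over libraries. DESeq2 1.42.0, other normalization, other filters, fits of 2 groups, a covariate and each library left out were alternatives. Scripts were tested on simulated data. Named were the 10 genes, pathway genes past the threshold, *Nfe2l2*, *Keap1* and *Bach1*, and the 5 genes most correlated with *Hmox1*, 1 of which is not reported here. The genes, lists and tests were chosen with earlier results of these data known. Sequences came from RefSeq and GENCODE tables on GRCm38, while the counts were made on GRCm39.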

Additional observations from a re-analysis of the deposited data

Results flagged for a closer look

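The change with CBD differed between the times for 2 genes of the pathway list, by the test of the difference itself (edgeR quasi-likelihood, 30 libraries). For *Sqstm1* the change at 24 h minus the change at 6 h was 0.62 ± 0.14 on the log2 scale (FDR = 0.0656). Its libraries stood at 459 to 485 CPM with vehicle and 411 to 512 CPM with CBD at 24 h, a change of -0.05, against -0.66 at 6 h. For *Gstm1* the difference was -0.67 ± 0.15 (FDR = 0.0656), with 143 to 167 CPM in the vehicle and 103 to 158 CPM with CBD at 24 h, a change of -0.13 against 0.55 at 6 h. At 3 µM alone, a test chosen after the values were seen, the *Gstm1* difference was -0.91 ± 0.19 (FDR = 0.0548). Of all genes, 0.235% passed the first test and 0.109% the test at 3 µM. None of the 10 genes passed either of them, and 3 had an unadjusted p under 0.05 in the first.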

How the results depend on the processing

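The *Hmox1* change for the 4 doses together at 6 h passed under every alternative run. The FDR of 2.94e-11 came from the fit without a filter on low counts, and 0.00503 was the highest apart from fits without a library. Without that filter 1 of the 10 genes passed among the doses at 6 h (0 in the reported fit), 1 for the doses together and for each single dose but the lowest at 24 h (0), 3 among the doses at 24 h (0) and 1 in the time difference (0), and 4 further pathway genes passed at 6 h (2) and 1 at 24 h (0). DESeq2 gave 4 further pathway genes at 6 h and 2 of the 10 among the doses at 24 h. With only the 2 groups compared, 0 passed at 0.325 and 1.5 µM at 6 h (1 each), and 1 each at 0.75 and 1.5 µM at 24 h. Adding each library's share of reads outside genes to the model, an alternative known from earlier results, gave 6 further pathway genes at 6 h and 1 of the 10, *Hmox1*, in the time difference. Leaving out 1 library gave 0 to 1 of the 10 at 0.325, 0.75 and 1.5 µM, 0 to 2 at 3 µM and 1 to 2 for the doses together at 6 h, and 1 to 6 further pathway genes. At 24 h it gave 0 to 1 at 0.75 and 3 µM and for the doses together, 0 to 3 among the doses and 0 to 1 further pathway genes. The 3 among the doses came without the 3 µM library at 17.6 CPM of *Ftl1*, where 1085 genes passed in all, against 234 with every library. Ratios with p under 0.05 numbered 4 to 9 at 6 h and 0 to 3 at 24 h.

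Directions turned only for uncalled changes. At 24 h that covariate gave *Txnrd1* -0.0147, *Srxn1* 0.0626, *Prdx1* -0.0132 and *Fth1* -0.0239, and a minimum of 10 reads in every library gave *Txnrd1* -0.000261. Leaving out libraries spanned 0, at 6 h, for *Nqo1* (-0.14 to 0.47), *Gsr* (-0.0434 to 0.23), *Fth1* (-0.0592 to 0.23) and *Ftl1* (-0.0761 to 0.28), and at 24 h for *Hmox1* at 3 µM (-0.26 to 0.10), *Gclm* (-0.0657 to 0.0795), *Gclc* (-0.15 to 0.33), *Txnrd1* (-0.06997 to 0.13), *Nqo1* (-0.30 to 0.12) and *Prdx1* (-0.0287 to 0.33). The cause was not tested. No paired analysis was possible because no number in the labels ties a library of one group to a library of another. The 3 libraries a group and the few reads behind *Nqo1*, *Gsr* and *Ftl1* limit what could be called. The comparisons of times dose by dose and the fit of the vehicle libraries alone were chosen after the values were seen.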
